A study of Mus musculus with 9 samples.

Results

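The matrix metalloproteases Mmp1b, Mmp2, Mmp3, Mmp9, Mmp10, Mmp13 and Mmp14 and the tissue inhibitors Timp1, Timp2 and Timp3 were followed through RNA-seq of 66cl4, a mouse mammary carcinoma line labelled as triple negative. They were taken by symbol from the deposited count table, which holds 55418 symbols, and all 10 were found. The 9 libraries came from cultured cells transduced with a hairpin vector and kept in puromycin: 3 with a scrambled hairpin (SCR), 3 with the hairpin shEya3_KD1 and 3 with the hairpin shEya3_KD2, both directed at Eya3. All 3 groups thus share the parental line, transduction and puromycin, and the labels do not say whether each line is a pool or a clone. The libraries are labelled as biological replicates without a description of separate cultures, so p-values measure the spread between these libraries.

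Matrix metalloproteases are zinc-dependent enzymes that cut collagens, laminins and other proteins of the extracellular matrix, and most are made as inactive precursors that must be cleaved before they work. Timp proteins bind the active site of these enzymes and block it. Timp2 also has a second role at the cell surface, where it links membrane-bound Mmp14 to the precursor of Mmp2 and so helps to activate it. In mammary tumours these enzymes are known for matrix remodelling and invasion, and they can be made by the tumour cells as well as by fibroblasts, macrophages and neutrophils.

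Library totals were 27758862 to 52691960 counts, and 15914 genes passed the filter on low counts. Eya3 itself stood at 31.7% of its SCR mean with shEya3_KD1 and at 51.5% with shEya3_KD2. Of 9 markers used to check the labelled cell type, Krt8 and Vim were abundant (679 and 2098 CPM in SCR; CPM is counts-per-million after scaling with TMM factors). The other epithelial markers were near or at 0 in SCR: Krt18 had 4 counts, Krt19 3, Cdh1 9 and Epcam none. Krt18 rose with both hairpins (4.95 ± 0.39 and 6.39 ± 0.32 on the log2 scale) to at most 2.62 CPM on average. Epcam and the progesterone receptor gene Pgr had no counts in any group, while the oestrogen receptor gene Esr1 stood at 7.11 CPM and Erbb2 at 53.6 CPM in SCR. Esr1 (1.06 ± 0.16 and 1.15 ± 0.16 on the log2 scale), Erbb2, Krt8 and Vim were also called higher with both hairpins, as were 10.3% of all genes tested. Krt19 was called higher with shEya3_KD2 only, and Cdh1 was too low to test.

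Mmp13, Mmp1b, Mmp3 and Mmp10 lie in a cluster of 10 Mmp genes on chromosome 9 (mm10, 7272514 to 7699585). Their promoters are shown because these neighbours share short sequence elements, whose part in the levels was not tested. A promoter window was matched in RefSeq (GRCm38.p6) for 8 of the 10 members. The lines give the last bases before the annotated start, 5′ to 3′ on the gene's strand, with capitals for matches to the AP-1 element TGANTCA, the Ets element AGGAAG (both strands) and the TATA element TATAAA (gene strand). The windows are chr9:7388048-7388176 (minus strand) for Mmp1b, chr9:7445672-7445821 for Mmp3, chr9:7502192-7502341 for Mmp10, chr9:7272364-7272513 for Mmp13 and, outside the cluster, chr14:54431448-54431597 for Mmp14 (plus strand for these 4).
Mmp1b: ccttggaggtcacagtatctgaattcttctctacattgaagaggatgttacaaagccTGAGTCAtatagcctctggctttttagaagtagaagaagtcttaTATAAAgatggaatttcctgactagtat
Mmp3: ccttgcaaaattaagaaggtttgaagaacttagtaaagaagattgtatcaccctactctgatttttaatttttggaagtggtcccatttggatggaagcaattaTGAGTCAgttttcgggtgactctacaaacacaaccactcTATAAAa
Mmp10: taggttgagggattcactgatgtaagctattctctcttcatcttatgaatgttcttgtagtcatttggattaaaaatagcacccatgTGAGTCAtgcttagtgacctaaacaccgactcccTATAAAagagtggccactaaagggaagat
Mmp13: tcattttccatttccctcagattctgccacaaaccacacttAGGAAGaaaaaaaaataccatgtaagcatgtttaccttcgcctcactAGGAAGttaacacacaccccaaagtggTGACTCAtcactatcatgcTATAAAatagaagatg
Mmp14: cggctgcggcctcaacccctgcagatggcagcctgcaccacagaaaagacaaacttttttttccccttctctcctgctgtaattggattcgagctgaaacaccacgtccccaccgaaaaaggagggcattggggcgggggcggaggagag
Positions are counted back from the RefSeq start, and the Mmp1b line stops 21 bases short of it, where the GENCODE gene begins. The AP-1 element spans positions -93 to -87 in Mmp1b, -46 to -40 in Mmp3, -63 to -57 in Mmp10 and -35 to -29 in Mmp13. Each of these 4 promoters also holds a TATA element, between positions -49 and -2. In the 250 bases before the start, 6.75% of all 32851 RefSeq promoters hold the AP-1 element, 7.59% the TATA element and 0.791% both. Both stood in these 4 of the 8 matched members. These 4 are neighbouring genes of 1 cluster and not independent cases, so the share was not tested. None of the other 4, Mmp14, Timp1, Timp2 and Timp3, has either in that window. The Ets element was present in 6 of the 8 members and in 29.5% of all promoters. The elements do not overlap each other, and a match is a description of letters, not of binding.

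Of the 10 members 7 passed the filter and 3, Mmp2, Mmp13 and Timp3, were too low to test. With shEya3_KD1 4 of the 7 fell and 1 rose against SCR, where 50.3% of all genes tested were called, 26.2% lower and 24.1% higher. With shEya3_KD2 6 fell and 1 rose, where 45.3% of all genes were called, 22.3% lower and 23.0% higher. More than 2-fold falls were counted for 4 members with each hairpin, against 9.53% and 5.93% of all genes. The median log2 fold change of the 7 was -1.35 with shEya3_KD1 and -1.43 with shEya3_KD2, also with Mmp1b at its bound, and over all genes tested it was 0.01 and -0.004. Mmp1b and, for the most part, Mmp3 passed the filter through their SCR libraries, so their fall is built into these counts and medians. Without them 5 tested members remained: with shEya3_KD1 2 fell and 1 rose (median -0.17), and with shEya3_KD2 4 fell and 1 rose (median -0.56). More than 2-fold falls then numbered 2 of 5 with each hairpin, Mmp9 and Mmp14 with shEya3_KD1 and Mmp9 and Mmp10 with shEya3_KD2. Of the 7, 4 fell and 1 rose with both hairpins (2 and 1 of the 5 without Mmp1b and Mmp3), beside 13.3% and 10.3% of all genes, and these comparisons share the SCR libraries. None went in opposite directions (5.28% of all genes did). Between the hairpins 6 members were called, where 49.6% of all genes were: Mmp9 and Mmp14 were higher with shEya3_KD2, and Mmp3, Mmp10, Timp1 and Timp2 lower (22.5% of all genes were lower), Mmp3 and Mmp10 by more than 2-fold (5.17%). The libraries of the compared groups did not overlap for 5 members in shEya3_KD1 against SCR, where 59.3% of all genes did not overlap. Mmp1b and Mmp3 are among these 5. Of the 5 tested members without them, Mmp9, Mmp14 and Timp1 did not overlap, while Mmp10 and Timp2 did. That is about the share of all genes. With shEya3_KD2 the 7 tested members did not overlap SCR (54.4% of all genes), Mmp1b and Mmp3 among them. Between the hairpins 6 members did not overlap (54.3%), Mmp3 among them. The 5 members other than Mmp1b and Mmp3 stayed apart in both of these comparisons. In bulk RNA, fewer cells of a type and less RNA per cell cannot be told apart.

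**Figure D1:**
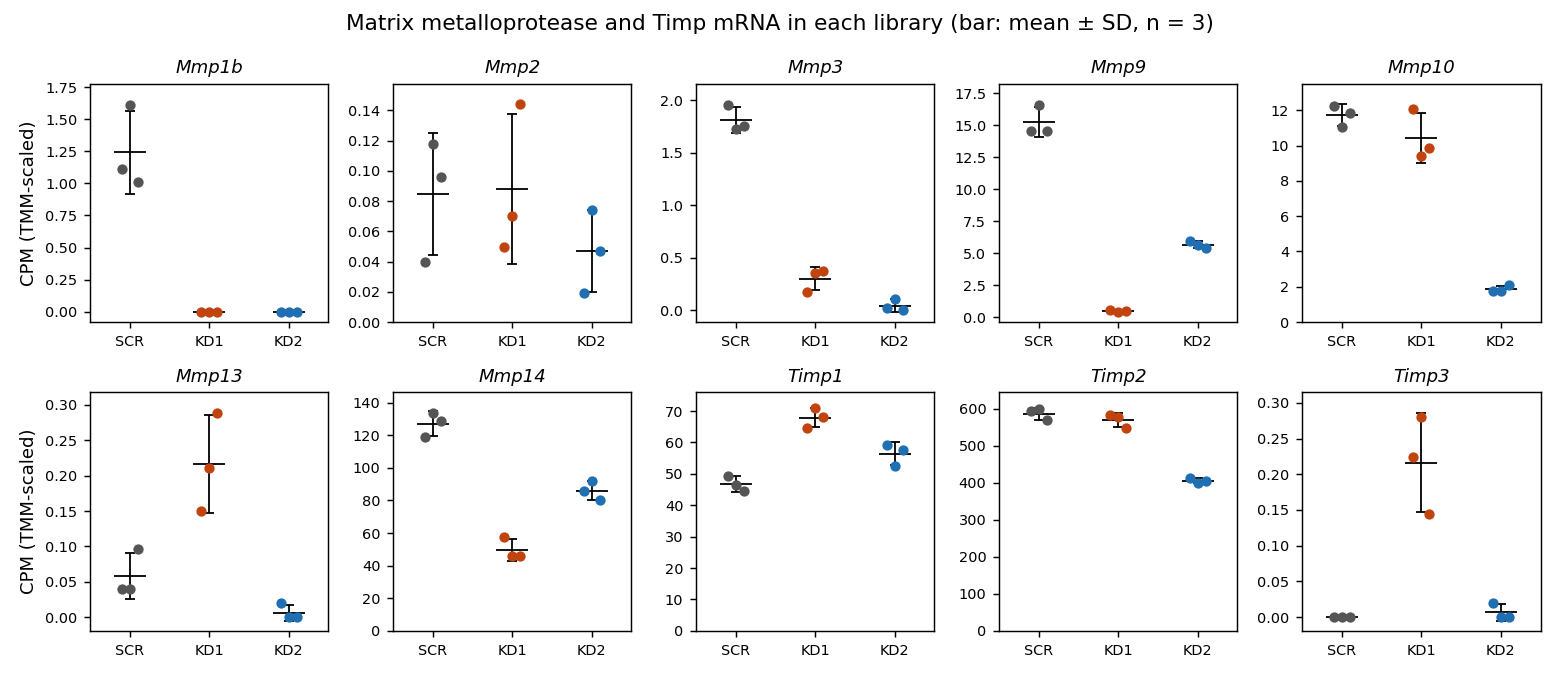
TMM-scaled CPM (vertical axes, each gene on its own scale) of the 10 members in each of the 9 libraries, with KD1 and KD2 for shEya3_KD1 and shEya3_KD2; points are libraries and bars the mean ± SD of 3. Mmp9 was lowest in shEya3_KD1 (0.521 CPM) and Mmp10 lowest in shEya3_KD2 (1.88 CPM), while Mmp1b had no counts with either hairpin.

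Mmp14, the membrane-anchored collagenase that also activates pro-Mmp2, was the most abundant member protease (mm10, chromosome 14, 54431612 to 54445364). Its SCR libraries stood at 119, 134 and 128 CPM, the shEya3_KD1 libraries at 57.3, 45.9 and 45.8 CPM, and the shEya3_KD2 libraries at 85.6, 92.0 and 80.4 CPM. The 3 groups did not overlap, with SCR highest and shEya3_KD1 lowest. Mmp14 fell by 1.35 ± 0.09 (SE) on the log2 scale with shEya3_KD1 and by 0.56 ± 0.09 with shEya3_KD2 (adjusted p = 9.44e-09 and 1.24e-04 in edgeR's quasi-likelihood test). It was 0.79 ± 0.09 higher with shEya3_KD2 than with shEya3_KD1 (adjusted p = 4.01e-06). In shEya3_KD1 7.25% of all genes tested had a lower fold change.

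Mmp9, a gelatinase that cuts type IV collagen and denatured collagen, stood at 14.5, 16.6 and 14.6 CPM in SCR (mm10, chromosome 2, 164940780 to 164955850). The shEya3_KD1 libraries held 0.599, 0.444 and 0.518 CPM, from 24, 19 and 18 counts. The shEya3_KD2 libraries lay between them and SCR, at 5.95, 5.65 and 5.40 CPM, with no overlap among the 3 groups. Mmp9 was thus at 3.42% of the SCR mean with shEya3_KD1 and at 37.2% with shEya3_KD2. The log2 fold changes were -4.87 ± 0.14 and -1.43 ± 0.10 (adjusted p = 4.93e-13 and 3.08e-08), and 1.11% and 3.96% of genes tested lay lower. The hairpins differed by 3.44 ± 0.15 (adjusted p = 8.83e-11), higher with shEya3_KD2. The other gelatinase, Mmp2 (mm10, chromosome 8, 92827291 to 92853420), was almost silent: SCR had 2, 6 and 4 counts, shEya3_KD1 2, 3 and 5, and shEya3_KD2 1, 2 and 2. The groups overlapped, and a difference could not be detected at this depth: the SCR to shEya3_KD2 ratio was 2.03 with a 95% counting interval (exact binomial) of 0.664 to 7.34.

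Mmp10 and Mmp3 are stromelysins, closely related enzymes that cut proteoglycans, laminin and fibronectin and can activate other pro-proteases. Mmp10 (mm10, chromosome 9, 7502352 to 7510240) stood at 12.2, 11.1 and 11.9 CPM in SCR and at 12.1, 9.40 and 9.85 CPM in shEya3_KD1, groups that overlapped. In shEya3_KD2 it was at 1.75, 1.77 and 2.10 CPM, far below every other library. Its log2 fold change was -0.17 ± 0.10 with shEya3_KD1, which did not pass the test (adjusted p = 0.196), and -2.64 ± 0.13 with shEya3_KD2 (adjusted p = 8.38e-10). The difference between the hairpins was itself past the threshold (-2.47 ± 0.13, adjusted p = 6.93e-10). Without shEya3_KD1 replicate 1, its highest library, the value for that hairpin was -0.28 with an adjusted p of 0.0324.

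Mmp3 (mm10, chromosome 9, 7445822 to 7455975) was low in SCR, at 1.96, 1.73 and 1.75 CPM. It had 7, 15 and 13 counts in the shEya3_KD1 libraries (0.175, 0.351 and 0.374 CPM) and 1, 3 and 0 in those of shEya3_KD2. The 3 groups did not overlap. It fell by 2.59 ± 0.30 and by 5.65 ± 0.45 on the log2 scale (adjusted p = 3.10e-06 and 1.62e-07), and the difference of shEya3_KD2 from shEya3_KD1 was -3.05 ± 0.65 (adjusted p = 0.00122). Mmp3 passed the filter for the most part through its SCR libraries, so its fall against SCR is partly built into the test. Summed counts gave an SCR to shEya3_KD2 ratio of 54.9, with a 95% counting interval of 21.2 to 203. Both stromelysins thus had their lowest values with the hairpin that left more Eya3, the reverse of the order seen for Mmp14 and Mmp9.

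Mmp1b is a mouse relative of the interstitial collagenase MMP1, and Mmp13 is a collagenase that cuts type II collagen well. Mmp1b (mm10, chromosome 9, 7368239 to 7388047) had 56, 82 and 42 counts in SCR (1.11, 1.61 and 1.01 CPM) and none in the 6 hairpin libraries. Against a floor of 3 counts over a group, the level was at least 49.3-fold lower in shEya3_KD1 and at least 50.7-fold in shEya3_KD2. The quasi-likelihood test gave adjusted p = 1.96e-06 and 4.02e-06. Mmp1b passed the filter only through its SCR libraries, so its fall is built into these p-values. Reads may be split with its paralog Mmp1a, which had 2 counts in SCR and none elsewhere, and 157 exon bases are shared with Mmp12 on the opposite strand, which had 2 counts in shEya3_KD1 only. Mmp13 (mm10, chromosome 9, 7272514 to 7283331) had 2, 2 and 4 counts in SCR, 6, 9 and 10 in shEya3_KD1 and 1, 0 and 0 in shEya3_KD2. Every shEya3_KD1 library lay above every other library in CPM. The summed counts gave a ratio of 3.80 (95% counting interval 1.66 to 9.75) for shEya3_KD1 over SCR, and with no filter on low counts it was called (adjusted p = 0.0172).

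Of the 10 Mmp genes of the chromosome 9 cluster, the 4 members did not move as a block with shEya3_KD1. Mmp1b was without counts in both hairpin groups, Mmp3 was lower in both, Mmp10 was lower in shEya3_KD2, and Mmp13 was highest in shEya3_KD1. With shEya3_KD2 all 4 had lower means than in SCR. Mmp13 went from 8 counts to 1 there, with a 95% counting interval of 0.906 to 300 for the SCR to shEya3_KD2 ratio. The other 6 (Mmp12, Mmp1a, Mmp8, Mmp27, Mmp20 and Mmp7) had at most 2 counts in each group, 4 of them none in any library. Of the flanking genes with reads, Dcun1d5, on the Mmp13 side, had log2 fold changes of -0.001 ± 0.09 and -0.23 ± 0.09 with shEya3_KD1 and shEya3_KD2, and Tmem123, on the Mmp7 side, -0.29 ± 0.06 and -0.08 ± 0.06. Dync2h1, beyond Dcun1d5, rose with both (1.24 ± 0.22 and 1.83 ± 0.21).

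**Figure D2:**
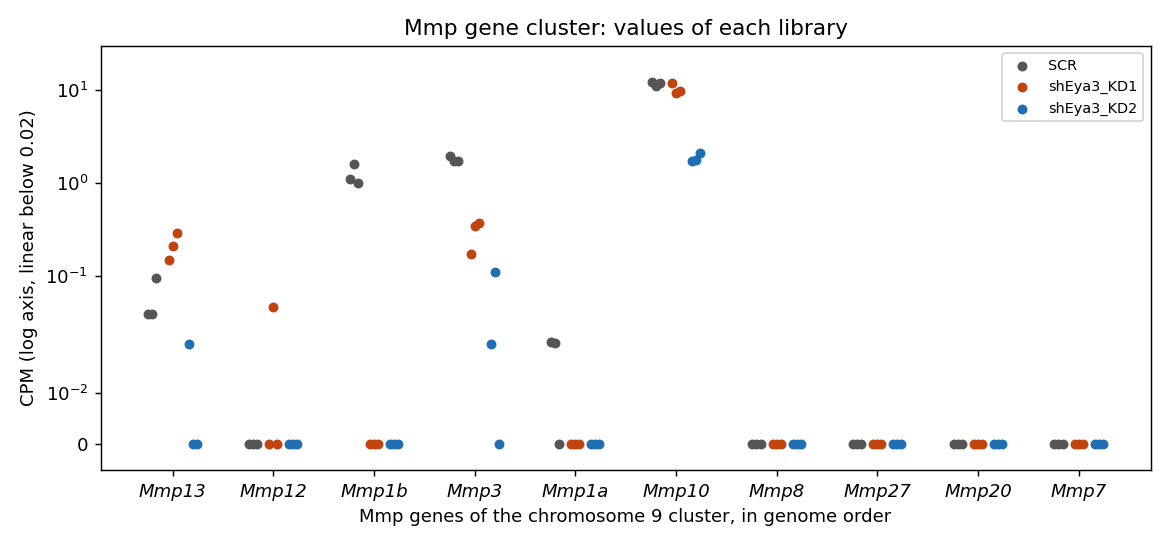
TMM-scaled CPM (log axis, linear below 0.02) of the 10 Mmp genes of the chromosome 9 cluster in genome order; each point is 1 of the 9 libraries, coloured by group. Mmp1b and Mmp3 were highest in SCR, Mmp10 was similar in SCR and shEya3_KD1 (11.7 and 10.4 CPM on average), and Mmp13 was highest in shEya3_KD1 (0.216 CPM).

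Of the inhibitors, Timp1 rose with both hairpins and Timp2 fell with shEya3_KD2. Timp1, a secreted inhibitor of broad range (mm10, chromosome X, 20870166 to 20874735), was at 49.4, 46.4 and 44.4 CPM in SCR, 64.7, 70.9 and 68.1 CPM in shEya3_KD1 and 59.2, 52.5 and 57.7 CPM in shEya3_KD2. The groups did not overlap. It rose by 0.54 ± 0.07 and 0.27 ± 0.07 on the log2 scale (adjusted p = 1.26e-05 and 0.00522). Timp2 (mm10, chromosome 11, 118301069 to 118355740) was at 595, 599 and 569 CPM in SCR and at 584, 577 and 547 CPM in shEya3_KD1, which overlapped, and at 413, 399.8 and 406 CPM in shEya3_KD2, below all others. Its log2 fold change was -0.04 ± 0.06 with shEya3_KD1 (adjusted p = 0.572) and -0.53 ± 0.06 with shEya3_KD2 (adjusted p = 7.75e-06), and the hairpins differed by -0.49 ± 0.06 (adjusted p = 1.15e-05). The changes of Timp1 and Timp2, and that of Mmp14 with shEya3_KD2, did not pass a test for a change above 1.5-fold.

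Timp3, an inhibitor that binds to the matrix, appeared with shEya3_KD1. No SCR library had a count of it, the shEya3_KD1 libraries had 9, 12 and 5, and those of shEya3_KD2 had 1, 0 and 0. Over the group it was at least 10.5-fold higher in shEya3_KD1 than in SCR, from a mean of 0.216 ± 0.0687 CPM (SD, n = 3), and with no filter on low counts it was called (adjusted p = 1.20e-06). Timp4, the remaining inhibitor gene, showed like counts: none in SCR, 29 in shEya3_KD1 and 1 in shEya3_KD2, at least 11.8-fold higher in shEya3_KD1. Timp1 overlaps Syn1 and Timp3 overlaps Syn3, synapsin genes on the opposite strand, with 0 and 1733 shared exon bases. Syn3 had 0, 2 and 0 counts and Syn1 9, 1 and 9 in SCR, shEya3_KD1 and shEya3_KD2. Cep295nl overlaps Timp2 on the same strand, shares no exon base with it and had 870, 256 and 367 counts.

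**Figure D3:**
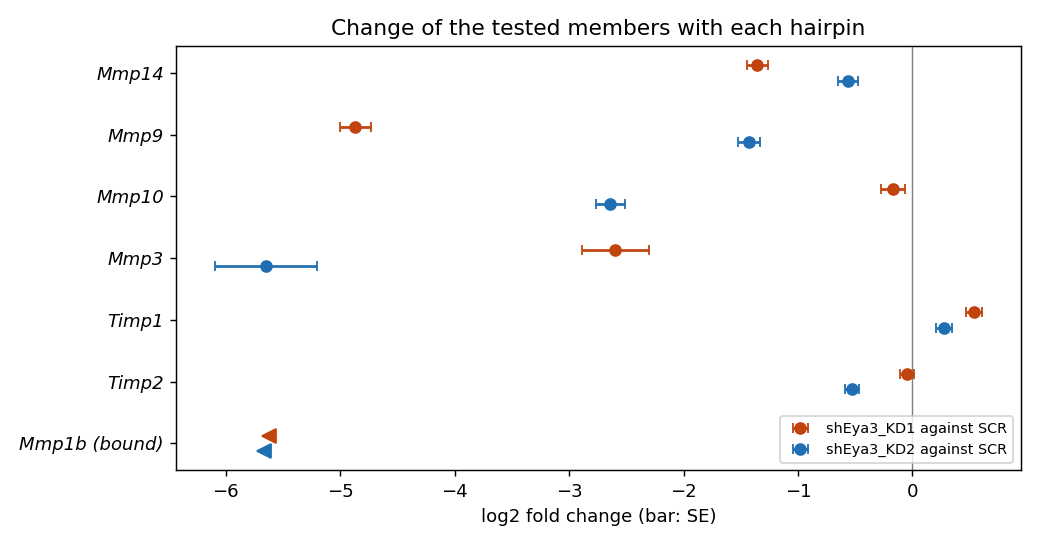
Log2 fold changes (horizontal axis; bars are the SE) of 6 tested members with shEya3_KD1 and shEya3_KD2 against SCR; arrowheads give Mmp1b at its bound of -5.62 and -5.66. Mmp9 and Mmp14 lay lower with shEya3_KD1, Mmp10, Mmp3 and Timp2 lower with shEya3_KD2, and Timp1 lay above 0 with both.

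Levels per length of merged exons were put on the RPKM scale (counts scaled to exon length and library size). Inhibitor mRNA of the members stood above their protease mRNA in every group. In SCR the order of levels was Timp2 (151 ± 4.19 RPKM, SD, n = 3), Timp1 (52.6 ± 2.84), Mmp14 (21.3 ± 1.29), Mmp10 (6.81 ± 0.351), Mmp9 (4.30 ± 0.332), Mmp3 (1.01 ± 0.0699) and Mmp1b (0.858 ± 0.223). Mmp3 and Mmp1b overlapped, as did Mmp2 and Mmp13 at 0.0251 and 0.0218 RPKM, and the other neighbours did not. Timp2, Timp1 and Mmp14 kept the first 3 places in each group. In shEya3_KD1 Mmp9 dropped to the sixth place, where it overlapped Mmp3, while in shEya3_KD2 Mmp9 (1.60 ± 0.0768 RPKM) stood above Mmp10 (1.09 ± 0.113). With the longest transcript as length in place of merged exons, Mmp14 stood at 39.2 RPKM in SCR.

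The makeup of the member protease mRNA therefore differed between the hairpins. Of the summed RPKM of the 7 proteases Mmp14 made up 62.0% ± 1.48 in SCR, 56.2% ± 0.865 in shEya3_KD1 and 84.1% ± 1.03 in shEya3_KD2 (SD, n = 3). Mmp10 made up 19.9% ± 1.78, 40.9% ± 0.598 and 6.38% ± 0.986. Mmp9 went from 12.5% ± 0.568 in SCR to 0.992% ± 0.0649 in shEya3_KD1 and 9.34% ± 0.522 in shEya3_KD2. With the longest transcript as length Mmp14 made up 74.3%, 70.2% and 90.1%, Mmp10 12.9%, 27.7% and 3.72%, and Mmp9 9.09%, 0.750% and 6.06%. Among the 7 member proteases, nearly all remaining mRNA in shEya3_KD1 was thus Mmp14 and Mmp10, and in shEya3_KD2 it was mostly Mmp14. Mmp24 and Mmp11 are not members and not in these sums. Mmp24 stood at 26.5, 0.0951 and 14.3 RPKM in SCR, shEya3_KD1 and shEya3_KD2, beside 21.3, 8.34 and 14.4 for Mmp14. Mmp11 stood at 3.38, 2.11 and 2.65 RPKM.

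Ratios within a library do not depend on scaling. The log2 RPKM ratio of Mmp14 to Timp2 was -2.82 ± 0.0987 in SCR, -4.14 ± 0.159 in shEya3_KD1 and -2.86 ± 0.112 in shEya3_KD2 (SD, n = 3). With shEya3_KD2 the log2 fold changes of Mmp14 and Timp2 were alike (-0.56 and -0.53), and the ratio overlapped SCR, while with shEya3_KD1 every library lay below. The Mmp9 to Timp1 ratio was -3.61 ± 0.141, -9.03 ± 0.281 and -5.31 ± 0.101, with no overlap. For the 7 member proteases over the 3 member inhibitors the log2 ratio was -2.57 ± 0.0786, -3.92 ± 0.182 and -3.29 ± 0.120, again without overlap. Inhibitor mRNA of the members thus exceeded their protease mRNA 5.92-fold, 15.1-fold and 9.79-fold. Mmp24 is not in these sums. With the longest transcript as length, in place of merged exons, the excess was 4.01-fold, 10.6-fold and 5.89-fold, in the same order. These ratios are descriptions of mRNA, with no test.

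**Figure D4:**
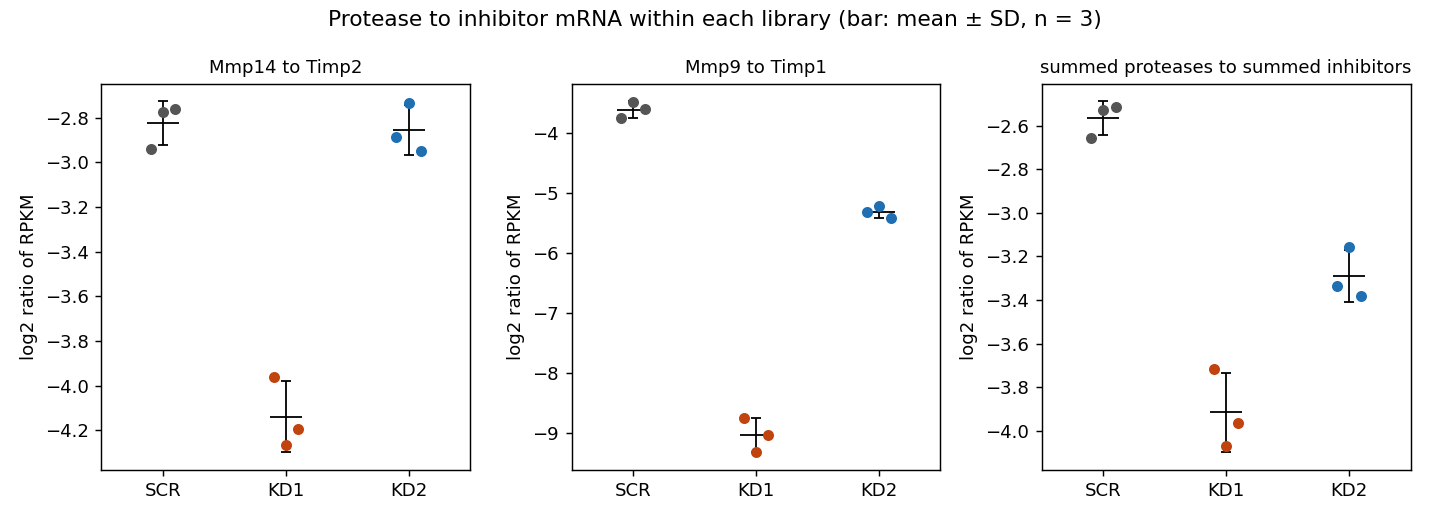
Log2 ratio of protease to inhibitor RPKM in each library (vertical axes, each on its own scale) for Mmp14 to Timp2, Mmp9 to Timp1 and the summed members; points are libraries and bars the mean ± SD of 3. Every shEya3_KD1 library lay lowest in all 3 panels, and shEya3_KD2 overlapped SCR only for Mmp14 to Timp2 (-2.86 and -2.82).

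Outside the members, 17 other Mmp and Timp genes were listed and 4 were tested. With shEya3_KD1 2 of the 4 fell and none rose (median log2 fold change -0.53), and with shEya3_KD2 2 fell and 1 rose (median 0.12), beside called shares of 50.3% and 45.3% over all genes. Mmp24, a membrane-anchored protease, fell with both hairpins, by far more with shEya3_KD1. Its SCR libraries held 125, 126 and 121 CPM, those of shEya3_KD1 0.499, 0.491 and 0.346 CPM, and those of shEya3_KD2 68.9, 68.7 and 63.3 CPM, with no overlap. The log2 fold changes were -8.09 ± 0.11 and -0.89 ± 0.07 (adjusted p = 2.80e-16 and 8.46e-08). Mmp24 thus had the same order over the groups as Mmp9 and Mmp14. Mmp11, a stromelysin-like enzyme, fell with both hairpins (-0.68 ± 0.10 and -0.35 ± 0.10), and Mmp28 rose with shEya3_KD2 alone in the test (1.44 ± 0.24, against 0.19 ± 0.28 with shEya3_KD1; the hairpins differed with an adjusted p of 6.51e-04).

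Of 20 genes for activation, docking and clearance of these proteases 12 were tested. With shEya3_KD1 3 rose and 5 fell (median -0.14), and with shEya3_KD2 3 rose and 3 fell (median -0.08), where 50.3% and 45.3% of all genes were called. Plaur, the urokinase receptor that focuses plasmin on the cell surface, fell from 226 ± 7.95 to 129 ± 4.64 and 146 ± 14.9 CPM. Cav1, a membrane protein of caveolae through which Mmp14 can be internalised, rose from 78.5 ± 3.41 to 207 ± 13.5 and 210 ± 6.69 CPM. Mrc2, which takes up collagen fragments, rose by 6.13 ± 0.18 and 4.18 ± 0.19 on the log2 scale.

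All 14 listed factors known to act on metalloprotease promoters, AP-1 and Ets factors together with Runx2, were tested. With shEya3_KD1 3 rose and 7 fell (median -0.25), beside 24.1% of all genes higher and 26.2% lower. With shEya3_KD2 3 rose and 2 fell (median 0.08), beside 23.0% higher and 22.3% lower. Jund, an AP-1 subunit, fell from 330 ± 8.86 to 89.0 ± 8.10 and 181 ± 10.8 CPM. Fosb rose from 3.73 ± 0.922 to 10.7 ± 0.889 and 5.25 ± 1.23 CPM, overlapping SCR in the latter. Of the other listed AP-1 genes, Fosl2 (-1.04 ± 0.09), Fosl1 (-0.56 ± 0.07) and Junb (-0.36 ± 0.07) were called lower with shEya3_KD1 only. Fos and Jun were called with neither hairpin. The Ets factors Etv5 (0.62 ± 0.09 and 0.51 ± 0.09) and Etv4 (0.27 ± 0.07 and 0.44 ± 0.07) rose with both on the log2 scale. Other Ets factors went down: Ets1 (-0.49 ± 0.07), Ets2 (-0.46 ± 0.10) and Elk3 (-0.24 ± 0.07) were called lower with shEya3_KD1 only. Etv1 was called lower with shEya3_KD2 only (-0.32 ± 0.10). The part of these factors in the protease changes was not tested.

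Of 22 listed matrix proteins that these enzymes can cut 17 were tested. With each hairpin 6 rose and 4 fell (medians 0.14 and 0.20), beside 50.3% and 45.3% of all genes called in either direction. Bgn, the proteoglycan biglycan, rose from 0.315 ± 0.0209 to 3.39 ± 0.681 and 3.16 ± 0.953 CPM. The collagen genes Col5a1 (-0.64 ± 0.16 and -0.75 ± 0.16) and Col1a1 (-1.48 ± 0.20 and -0.60 ± 0.18) fell with both on the log2 scale. Other listed collagen genes did not: Col1a2 was called higher with shEya3_KD1 only (5.70 ± 0.25) and Col18a1 with shEya3_KD2 only (0.64 ± 0.09). Col4a1 and Col4a2 were called with neither, and Col3a1 was too low to test.

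**Figure D5:**
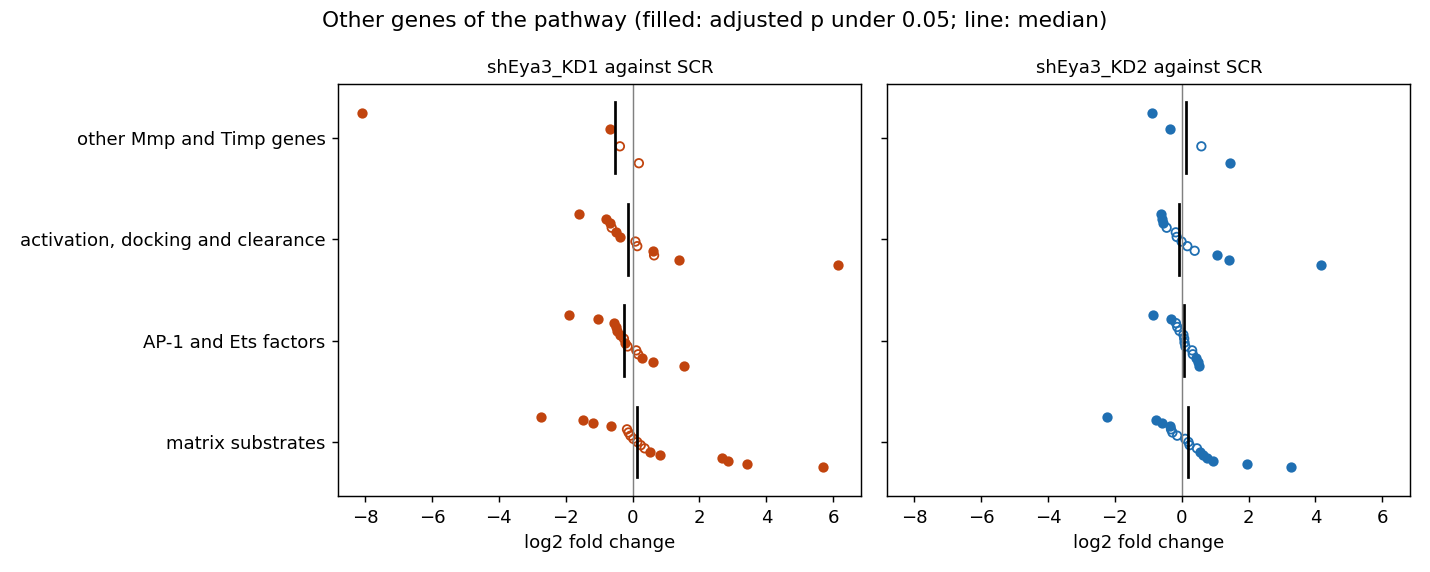
Log2 fold changes (horizontal axis) of the tested genes of 4 lists with shEya3_KD1 (left) and shEya3_KD2 (right) against SCR; filled points had an adjusted p under 0.05, open points did not, and vertical lines are list medians. Medians lay between -0.53 and 0.20, with Mmp24 far to the left in shEya3_KD1 and Mrc2 far to the right in both panels.

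Cells other than the labelled line could also make these enzymes, so their markers were summed. The 11 macrophage markers came to 51.1 to 53.9 CPM in SCR, 27.5 to 32.1 CPM in shEya3_KD1 and 23.0 to 28.7 CPM in shEya3_KD2, nearly all of it Lyz2 (38.6, 25.1 and 11.1 CPM), Cd68 (9.63, 3.54 and 12.1 CPM) and Mrc1 (3.90, 0.196 and 1.38 CPM). Members went different ways: Lyz2, Mrc1 and Ptprc fell with both hairpins, Cd68 fell with shEya3_KD1 and rose with shEya3_KD2, and C1qb rose with both from 4 counts to 32 and 44. C1qa and C1qc had no counts in any group and Adgre1 had 1 in all. The 7 neutrophil markers came to 0.385 to 0.514, 0.424 to 0.515 and 0 to 0.214 CPM, with Mpo at 0 throughout. The 8 fibroblast markers came to 28.8 to 35.9, 48.6 to 54.2 and 30.8 to 45.1 CPM, most of it Pdgfra. Among them Pdgfrb rose with both hairpins (0.605, 11.8 and 2.77 CPM), Col1a1 fell with both, and Thy1 was at 0 throughout. The 6 endothelial markers came to 3.66 to 4.35, 2.70 to 3.70 and 2.11 to 2.66 CPM, in which Cdh5 fell with both hairpins (3.72, 0.264 and 2.13 CPM) and Emcn rose with shEya3_KD1 (0.0131, 2.24 and 0 CPM). The part of such cells in the protease values was not tested.

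Across the 12492 tested genes with a mean of at least 1 CPM, the genes whose centred log2 CPM over the 9 libraries lay closest to each member were found by root mean square difference. For Mmp9 these were Rex2 (0.159) and Tmeff2 (0.223), for Mmp10 Mcpt8 (0.243) and Cela1 (0.276), and for Mmp3 Dpep1 (0.444) and Slc47a1 (0.505). For Mmp1b they were Cps1 (0.581) and Pnma5 (0.638), and for Mmp14 Irgq (0.0510) and Src (0.0770). Timp1 lay closest to Eif1 (0.0435) and Mettl8 (0.0480), and Timp2 to Fxr1 (0.0395) and Exosc10 (0.0430). The 9 libraries fall into 3 groups and share their scaling, so these values describe likeness of group levels as well as of single libraries. A prior count of 2 was added before logs were taken. It sets the values of Mmp1b with both hairpins, where no library had counts, and weighs on those of Mmp3 with shEya3_KD2. The likeness of other genes to these members rests partly on it.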

How the data were processed

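The authors deposited unnormalised counts of reads for each symbol, which were used unchanged. Per the labels' protocols, libraries came from a NuGEN Universal Plus kit. The submitters' processing notes name STAR, FastQC, MultiQC and mm10; how reads were counted, and whether by strand, is not given in the sources used here. Coordinates and merged exon lengths came from GENCODE M21 (GRCm38).

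Genes were kept with filterByExpr of edgeR 4.0.16 (R 4.3.3), scaled with TMM factors and fitted by group in 1 quasi-likelihood model of all 9 libraries. P-values were adjusted over 15914 genes (Benjamini-Hochberg, threshold 0.05), and SEs follow from the fold change and its F statistic. The fit was tested on simulated data. A permutation test of 3 against 3 cannot go below 0.1. A group without counts was read at a floor of 3 counts over the group; intervals and floors cover counting error only. No library repeated another: replicates differed beyond sampling noise, at 9.24 to 45.2 chi-square units per degree of freedom.

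Alternatives were RLE factors, DESeq2 1.42.0, limma-voom (limma 3.58.1), no filter, 5 CPM in 3 libraries, only the compared groups, a replicate block, a minimum fold of 1.5, leaving out each library, and transcript length. The members and lists were chosen with earlier results of these data known. All members were named, with genes that overlap them or lie in their cluster, the 2 genes most like each tested member, and up to 4 per list: those with at least 1 CPM called with both hairpins, by the smaller of their changes, then those called with 1. Timp4, the genes flanking the cluster, Col1a2, Col18a1, Col4a1, Col4a2, Col3a1, Fosl2, Fosl1, Junb, Fos, Jun, Ets1, Ets2, Elk3, Etv1 and Runx2 were named after their values were seen. Of the genes the rule named, 2 are not reported here.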

Additional observations from a re-analysis of the deposited data

How the results depend on the processing

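In the main fit 50.3% of all genes were called with shEya3_KD1, 45.3% with shEya3_KD2 and 49.6% between the hairpins. With both hairpins 13.3% were lower and 10.3% higher, and counts of members from the main fit are to be read beside these shares. For the other settings, apart from the replicate block, no share over all genes is given, so their counts of members have no background of their own. With each library left out in turn, 5 to 6 members were called with shEya3_KD1, 7 with shEya3_KD2 and 6 between the hairpins. In the same direction with both, 5 to 6 were called. The 6 with shEya3_KD1 and with both came without shEya3_KD1 replicate 1, where Mmp10 was also called. A filter of 5 CPM in 3 libraries tested neither Mmp1b nor Mmp3 and left 3 called with shEya3_KD1 and 3 in the same direction with both. With a minimum fold of 1.5, 4 were called with shEya3_KD2 and 3 in the same direction with both. Timp1 then also lost its call with shEya3_KD1, as did Timp1 and Timp2 between the hairpins. Counted without Mmp1b and Mmp3, an alternative chosen after seeing the data, 3 were called with shEya3_KD1, 5 with shEya3_KD2, 5 between the hairpins and 3 in the same direction with both. Over the alternatives 327 of the recomputed fold changes of members kept their direction and side of the threshold, 6 lost the call (all with the minimum fold) and 1 gained it. These values are not independent, as the fits share libraries. They include Mmp1b, whose lack of counts with both hairpins leaves it little room to change. No direction turned. With no filter on low counts, Timp3 (adjusted p = 1.20e-06) and Mmp13 (0.0172) were called higher in shEya3_KD1 than in SCR, and Mmp2 was not called. With the longest transcript as length, the log2 ratio of summed proteases to inhibitors differed from SCR by -0.56 in shEya3_KD2, and by -0.72 with merged exons. Deviations from the group means correlated at -0.108 to 0.196 over 9 pairs of same-numbered libraries and at -0.239 to 0.170 over 18 other pairs. Of the 9 libraries 5 correlated best with one of their own number. A replicate block changed no call of a member, with 5, 7 and 6 called in the 3 comparisons. Over all genes it called 8093, 7329 and 8017 of 15914, against 8011, 7210 and 7889 in the main fit. Depth limits Mmp2, Mmp13 and Timp3, which had at most 12 counts in a library.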
